A study of Mus musculus with 95 samples.

Results

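Mmp12, the macrophage metalloelastase, and Timp1, the tissue inhibitor of metalloproteinases 1, were followed through the lungs of mice that shared a cage with a seeder mouse carrying Pneumocystis murina, a lung fungus of mice. Members were all probe sets (groups of short array oligos that together read 1 transcript) that the platform annotation pairs with only Mmp12 or only Timp1. There were 4 of them among 12487, and they stood for 2 of the 8252 genes measured. Both genes were chosen for their level across the groups below, so their levels and differences are given as a description, with no test.

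Expression was measured in lung homogenate with 1 single-colour oligonucleotide array per mouse, 95 in all, in 19 groups of strain, day and exposure. The mice were C57BL (named C57BL/6 in the design text, and so here) or CD40L-KO, which lack CD40 ligand, which T cells use to activate macrophages and B cells through CD40; all were labelled female and 8 weeks old. Exposed C57BL/6 mice were taken at days 7 (8 mice), 14 (8), 21 (6), 32 (3), 34 (10), 41 (10) and 75 (3), and unexposed ones at days 7 (4), 14 (6), 21 (5), 32 (2), 34 (5) and 41 (5). Exposed CD40L-KO mice were taken at days 32 (3), 35 (4), 39 (2) and 75 (3), and unexposed ones at days 32 (3) and 14 (5). The 5 unexposed mice labelled day 14 served as controls of the 4 of day 35, since the design text names 5 unexposed mice in that experiment. The experiment of the 8 mice of days 39 and 75 is not stated, and these groups are described by level only. Exposed and unexposed mice were in separate cages in experiments 1 to 3, so there exposure and cage cannot be told apart. No label gives the infection level of a single mouse.

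Mmp12 is a secreted zinc protease, made mainly by macrophages, that cuts elastin and other proteins of the extracellular matrix; it is best known in lung for its part in emphysema. Timp1 is a small secreted protein that binds the active site of many matrix metalloproteinases and blocks them, and it is made by fibroblasts, epithelium and myeloid cells after inflammatory signals. Both genes are known to be switched on by transcription factors that act downstream of cytokines, among them AP-1, whose site TGANTCA is a standard element of metalloproteinase promoters.

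Because both genes were high in exposed C57BL/6 mice of days 32 and 34, the bases before their transcription starts are shown. Mmp12 (gene 17381) lies on chr9:7344397-7360461 and Timp1 (gene 21857) on chrX:20870166-20874737, both on the plus strand of GRCm38.p6, and RefSeq lists 2 starts for Mmp12 and 1 for Timp1. The first sequence below holds the 250 bases before the second Mmp12 start, with its AP-1 letters in capitals, and the second holds the 250 bases before the Timp1 start, with each AGGAAG (an ETS-family core) in capitals. The last one is a stretch of 30 bases just after the Timp1 start, with TGAGTAA, a variant of the AP-1 letters, in capitals; this variant was chosen with the sequence in view. Sequences are from RefSeq, 5′ to 3′ on the plus strand.
Mmp12, chr9:7347124-7347373: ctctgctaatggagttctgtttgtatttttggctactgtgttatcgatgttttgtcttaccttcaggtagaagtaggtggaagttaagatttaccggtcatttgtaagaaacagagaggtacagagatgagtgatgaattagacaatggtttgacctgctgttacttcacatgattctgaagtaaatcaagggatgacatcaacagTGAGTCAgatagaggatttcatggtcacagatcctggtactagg
Timp1, chrX:20869916-20870165: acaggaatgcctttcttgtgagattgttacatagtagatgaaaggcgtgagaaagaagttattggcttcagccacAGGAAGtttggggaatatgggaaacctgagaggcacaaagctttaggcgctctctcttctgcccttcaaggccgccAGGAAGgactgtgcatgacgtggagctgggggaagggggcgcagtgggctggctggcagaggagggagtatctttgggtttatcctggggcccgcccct
Timp1, chrX:20870181-20870210: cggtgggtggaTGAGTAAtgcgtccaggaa
TGAGTCA began 44 bases before the second Mmp12 start, at chr9:7347330-7347336. TGANTCA was found on both strands of that window, whose letters overlap because the reverse complement of the site is the site again. It was absent from the window of the first Mmp12 start and from the Timp1 window, so the 2 genes did not share it. In the window of the first Mmp12 start, AGGAAG was found on the minus strand 87 bases before the start. In the Timp1 window AGGAAG began 175 and 99 bases before the start and again at base 41 after it, and TGAGTAA began at base 27. The STAT letters TTCNNNGAA, like the other motifs searched on both strands, were in none of the 3 windows. Over 32851 RefSeq windows of 300 bases, TGANTCA was in 7.81%, TGAGTAA in 2.68%, AGGAAG in 35.4% and TTCNNNGAA in 8.30%, so each of these letters is also present in many promoters of other genes.

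Facts of the whole series bear on the values below. Array medians lay between 35.5 and 46.3 intensity units after the scaling that the deposited values carry. Of the 95 arrays, 16 carried transcripts of squamous epithelium (the mean of Krt4 and Krt13, keratins of stratified epithelium, was at least 10.11 on the log2 scale there and at most 6.04 on the other 79). They included 4 of 5 unexposed and 3 of 10 exposed C57BL/6 mice of day 34, and 2 of 3 unexposed and 1 of 3 exposed CD40L-KO mice of day 32; C57BL/6 mice of days 32 and 41 had none. On 17 arrays, all those of C57BL/6 day 75 and of CD40L-KO days 14, 35, 39 and 75, the Y-linked Eif2s3y stood above Xist, which goes against the label female. The probe set of Cd40lg, the gene removed in CD40L-KO mice, read 3.05 to 3.75 on all 95 arrays of both strains, near the scale's floor of 3, so it could not check the strain labels. Of 19 macrophage genes and 5 genes of alveolar epithelium measured, 0 had a median under 4 over the arrays.

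Mmp12 was read by 2 probe sets. The brighter one ranged from 16.0 to 2098 intensity units over the 95 arrays (median 76.3) and is the one used for Mmp12 unless stated. The other ranged from 5.15 to 776 (median 19.8). The correlation between them was 0.89 over the 95 arrays and 0.91 over the 19 group means, as a description. Below about 100 units on the brighter probe set the points scatter, and above it they rise together.

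**Figure D1:**
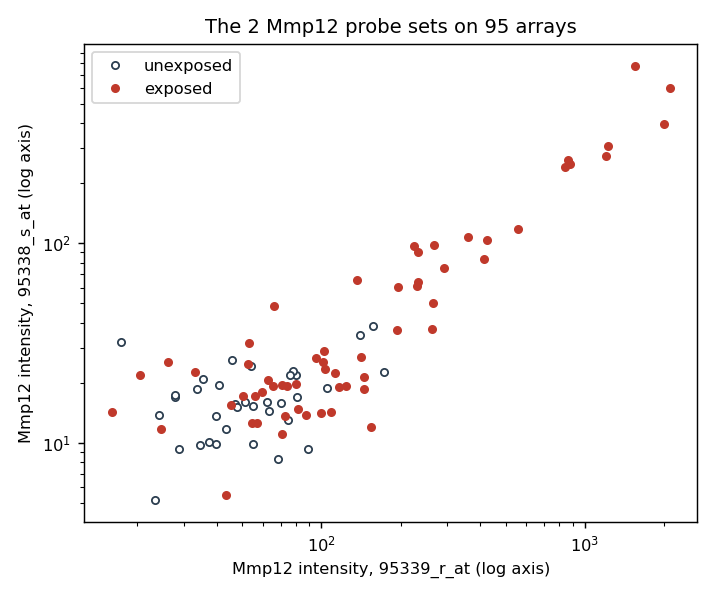
Intensity of the other Mmp12 probe set (vertical, log axis) against that of the brighter one (horizontal, log axis); each point is 1 of 95 arrays, filled for exposed and open for unexposed mice. The unexposed arrays lie between 17.4 and 172.9 units on the brighter probe set and up to 38.6 on the other, while exposed arrays reach 2098 and 776.

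In C57BL/6 mice at day 32, Mmp12 was 1555, 232 and 880.4 units in the 3 exposed mice and 45.8 and 54.0 in the 2 unexposed ones. Every exposed mouse was above both unexposed mice, and the exposed mice spread far more than the unexposed pair. At day 34 the 10 exposed mice had a lowest value of 66.1, a median of 250.2 and a highest of 2098 units. The 5 unexposed mice of day 34 had 23.4, 68.7, 41.0, 172.9 and 80.1 units. Of the exposed mice 9 of 10 were above every unexposed one; the lowest, a mouse whose array carried squamous transcripts, lay inside the unexposed range. At day 41 the exposed mice ran from 195.1 through a median of 387.9 to 1999 units. The 5 unexposed mice of day 41 had 157.3, 77.7, 76.3, 104.9 and 139.8 units. All 10 exposed mice of day 41 were above all unexposed ones, although the lowest exposed and the highest unexposed were close.

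Mmp12 thus did not overlap between exposed and unexposed C57BL/6 mice at days 32 and 41. Among all 8252 genes, every exposed array was above every unexposed one for 17% at day 32, where 3 mice stood against 2, for 1.27% at day 34 and for 0.751% at day 41. On the log2(intensity + 8) scale, which understates the change of dim genes, the difference of the group means (exposed minus unexposed, ± SE from a limma fit of all groups of the same experiment) was 3.59 ± 0.61 at day 32, 2.38 ± 0.58 at day 34 and 2.10 ± 0.58 at day 41. The SE assumes 1 spread for all groups of an experiment, although at day 32 the SD was 1.39 in exposed and 0.14 in unexposed mice. Ranked by rise among the 8252 genes, the differences were at places 7, 6 and 9. The other Mmp12 probe set gave 3.04, 2.46 and 1.79. It read 90.9, 249.7 and 776.5 units as the lowest, middle and highest exposed value of day 32 against 24.3 and 25.9 unexposed. At day 34 it ran from 36.8 to 599.0 in exposed mice and from 5.15 to 22.6 in unexposed ones, so here the groups did not overlap. At day 41 it ran from 37.2 to 395.4 against 18.7 to 38.6, and the groups just overlapped.

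Earlier, Mmp12 differed less. At day 7 the 8 exposed C57BL/6 mice ran from 50.6 through a median of 65.2 to 103.4 units, and the 4 unexposed ones had 51.4, 47.1, 62.1 and 47.9. At day 14 the 8 exposed mice ran from 54.6 through 104.4 to 145.2 and the 6 unexposed ones from 37.4 through 69.0 to 89.3. At day 21 the 6 exposed mice ran from 45.2 through 87.0 to 153.9, and the 5 unexposed ones had 28.8, 39.7, 70.0, 54.8 and 54.8. The exposed medians were above the unexposed ones on all 3 days, and the groups overlapped on all 3, with 4 of 8, 5 of 8 and 5 of 6 exposed mice above every unexposed mouse of their day. No overlap was seen for 0.46%, 0.109% and 0.485% of all genes on these days. The differences were 0.36 ± 0.25, 0.55 ± 0.22 and 0.79 ± 0.25 (SE), at places 211, 73 and 12 by rise among the 8252 genes. The dimmer probe set gave 0.07, 0.34 and 0.20, so the size of the early differences depended on which probe set was read.

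In CD40L-KO mice at day 32 Mmp12 was 26.0, 43.4 and 53.0 units in the exposed mice and 35.5, 27.9 and 43.5 in the unexposed ones. At day 35 it was 20.5, 33.0, 73.9 and 16.0 in the exposed mice, against 24.2, 17.4, 34.6, 33.8 and 27.9 in their unexposed controls. The exposed and unexposed mice overlapped on both days, with 1 of 3 and 1 of 4 exposed mice above every unexposed one; 13.6% and 2.07% of all genes had no overlap. The differences were 0.14 ± 0.54 and 0.16 ± 0.32 (SE), at places 3292 and 1433 by rise. The SE of day 32 shares its spread with the exposed C57BL/6 mice (SD 1.39), while the exposed and unexposed CD40L-KO mice had SD 0.43 and 0.26. Without the 3 arrays with squamous transcripts the difference of day 32 was -0.30, with 1 unexposed mouse left. The difference between the responses of the strains was not tested, since the members were chosen on these values.

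At day 75 Mmp12 was 95.6, 141.6 and 136.8 units in the 3 CD40L-KO mice. They lay above all 17 CD40L-KO mice of the other days, whose highest value was 73.9. On the dimmer probe set they read 26.7, 27.0 and 65.4 units, and the other CD40L-KO mice reached 32.1, so there the mice of day 75 overlapped the rest. The 3 C57BL/6 mice of day 75 had 145.3, 101.9 and 65.7 units, below every exposed C57BL/6 mouse of days 32 and 41. How many of all genes separated the mice of day 75 in these ways, in either strain, was not counted. The 2 CD40L-KO mice of day 39 had 52.4 and 24.6, inside the range of day 35. The mean level of the 19 macrophage genes was 7.61 to 7.82 in the CD40L-KO mice of day 75, 7.20 to 7.39 at day 39 and 7.25 to 7.36 in the C57BL/6 mice of day 75; its part in the Mmp12 level was not tested. No unexposed mouse of day 75 or 39 was analysed here.

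Ordered by group mean of log2(intensity + 8), Mmp12 was highest in exposed C57BL/6 mice of day 32 (9.44 ± 1.39, SD, n = 3), then day 41 (8.94 ± 1.07, n = 10) and day 34 (8.54 ± 1.43, n = 10). These 3 neighbours did not differ beyond their spread. The step of 1.51 from day 34 down to the CD40L-KO mice of day 75 (7.03 ± 0.29, n = 3) was larger than the larger SD of the pair, and it was the only one of the 18 steps that was. From there the means fell in small steps to 5.13 ± 0.31 (n = 5) in unexposed CD40L-KO mice, and each neighbour pair lay within its spread. The 3 exposed C57BL/6 groups also led on the dimmer probe set, with the step below them again beyond the spread (1.42). The 5 lowest groups on the brighter probe set were CD40L-KO groups, whereas on the dimmer one these 5 lay at places 8 to 14, between C57BL/6 groups. A lower Mmp12 level in these 5 CD40L-KO groups was therefore seen on 1 of the 2 probe sets. The dimmer one read them at 5.49 to 32.1 units, toward the offset of 8, where a change is understated. The CD40L-KO mice of day 75 stood at place 4 on both probe sets.

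**Figure D2:**
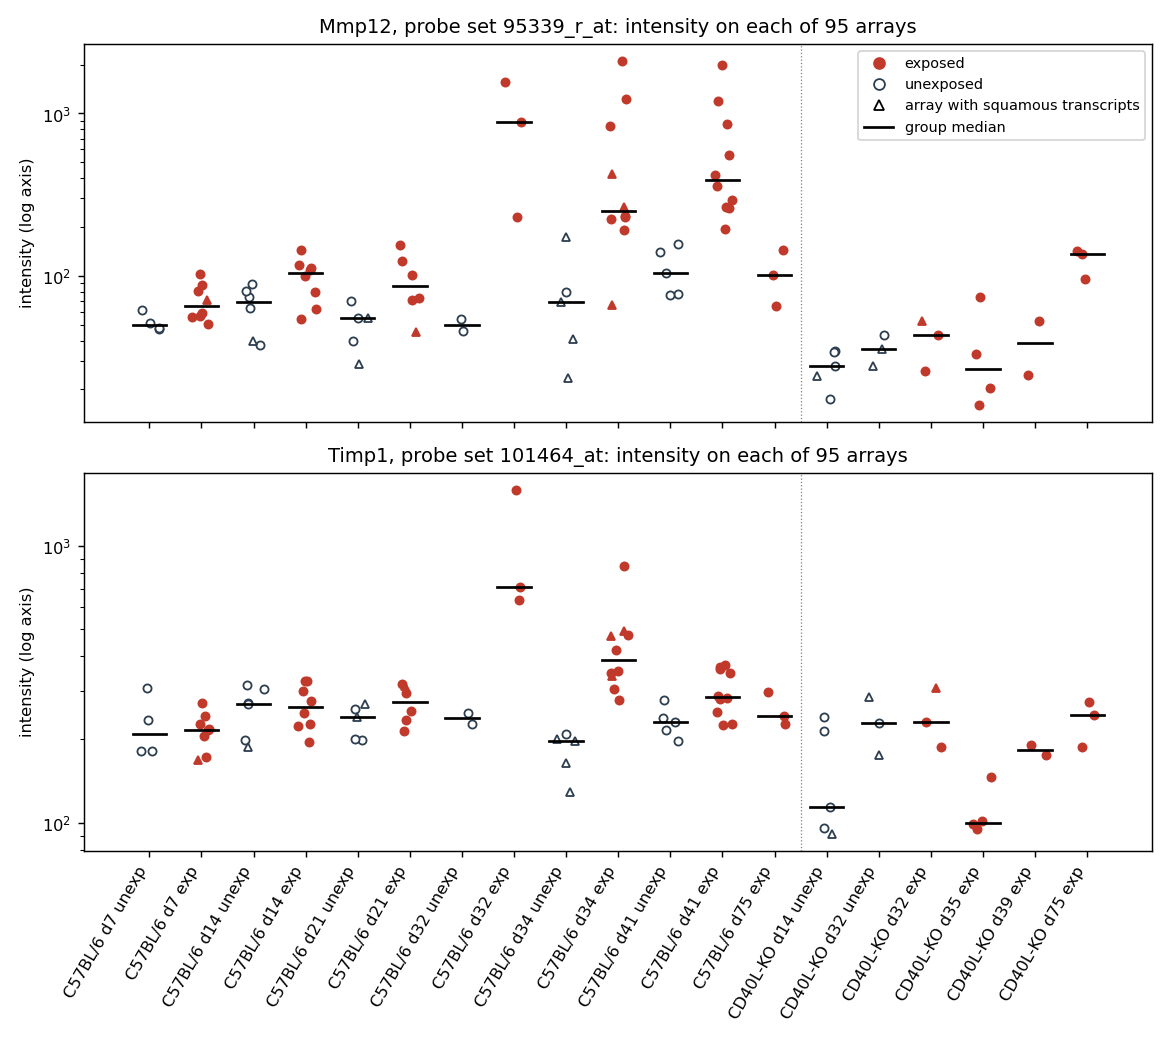
Intensity (log axes) of Mmp12 and Timp1 on each of 95 arrays, by group; filled points are exposed and open points unexposed mice, triangles are arrays with squamous transcripts, and the bar is the group median. Exposed C57BL/6 mice of days 32, 34 and 41 reach 1555, 2098 and 1999 units for Mmp12, and those of day 32 reach 1593 for Timp1, while no CD40L-KO mouse is above 141.6 for Mmp12 or 305.6 for Timp1.

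Timp1 was also read by 2 probe sets. The brighter one ranged from 91.3 to 1593 units (median 241.5) and the other from 0.13 to 15.5 units, with a mean of 2.99. The latter lay near the scale's floor in all groups, and its correlation with the former was 0.16 over 95 arrays, so Timp1 is described by the brighter one. At day 32 in C57BL/6 mice Timp1 was 710.3, 639.6 and 1593 units in the exposed mice and 227.3 and 249.3 in the unexposed ones. All 3 exposed mice were far above both unexposed mice. At day 34 the 10 exposed mice ran from 277.6 through a median of 388.0 to 844.4 units, and the 5 unexposed ones had 198.1, 129.2, 164.2, 201.0 and 209.1. Every exposed mouse was above every unexposed one on this day as well. Such a separation was seen for 17% of all genes at day 32 and for 1.27% at day 34. At day 41 the exposed mice ran from 226.1 through 284.9 to 370.2 and the unexposed ones had 217.1, 197.7, 239.7, 230.9 and 276.6. Here the groups overlapped, with 7 of 10 exposed mice above all unexposed ones.

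The Timp1 differences at days 32, 34 and 41 were 1.88 ± 0.37, 1.18 ± 0.18 and 0.34 ± 0.18 (log2, SE), at places 43, 59 and 371 by rise among the 8252 genes. At day 34 only 1 unexposed mouse remained without the arrays with squamous transcripts, and the difference was then 0.93; against the unexposed mice of days 34 and 41 pooled, without those arrays, it was 0.81. The unexposed mice of day 34 had the lowest Timp1 mean of all C57BL/6 groups, 7.54 ± 0.28 (SD, n = 5). The log2 ratio of Gapdh signal at its 3′ end over its 5′ end, a measure of RNA integrity, ran from 0.27 to 2.13 in those unexposed mice, against -0.16 to 1.59 in exposed mice of that day, and the Timp1 difference with this ratio as a covariate was 1.05 (log2). For Mmp12 the day 34 difference was 2.45 without the squamous arrays, 2.13 with pooled controls and 2.18 with the ratio as a covariate.

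Before day 32 the exposed and unexposed mice overlapped in Timp1. At day 7 the exposed mice ran from 168.6 through 217.1 to 270.2 units and the unexposed ones had 236.0, 182.2, 181.6 and 306.5. At day 14 the exposed mice ran from 195.7 through 261.8 to 326.0 and the unexposed from 187.9 through 269.1 to 315.1. At day 21 the exposed mice ran from 214.9 through 273.6 to 317.5, and the unexposed ones had 268.3, 198.7, 200.0, 241.5 and 257.3. The differences of -0.05 ± 0.16, 0.05 ± 0.14 and 0.21 ± 0.15 (SE) were within 1.5 SE of 0, and 0 of 8, 2 of 8 and 3 of 6 exposed mice were above every unexposed one. On day 21, when Mmp12 stood at place 12 by rise, Timp1 stood at place 1077.

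In CD40L-KO mice Timp1 at day 32 was 187.5, 230.6 and 305.6 units in exposed and 175.6, 285.2 and 228.6 in unexposed mice, and the difference was 0.07 ± 0.33 (SE). At day 35 it was 101.7, 95.3, 147.0 and 98.9 in exposed mice, against 91.3, 240.4, 114.1, 95.7 and 214.2 in their controls. The exposed mice of day 35 lay within the range of the controls, which fell into 3 low and 2 higher values, and the difference was -0.33 ± 0.29. At day 39 Timp1 was 191.0 and 175.3, and at day 75 it was 187.8, 245.8 and 272.2 in CD40L-KO and 244.0, 297.9 and 228.0 in C57BL/6 mice. Timp1 is X-linked, and the arrays on which Eif2s3y stood above Xist held both the lowest Timp1 group (CD40L-KO day 35, 6.87 ± 0.27, SD, n = 4) and the C57BL/6 mice of day 75 (8.04 ± 0.19, n = 3), which lay in the middle of the order. The part of sex in the Timp1 level was not tested.

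Ordered by group mean, Timp1 was highest in exposed C57BL/6 mice of day 32 (9.82 ± 0.71, SD, n = 3), followed by day 34 (8.71 ± 0.45, n = 10) and day 41 (8.24 ± 0.27, n = 10). The steps from day 32 to day 34 and from day 34 to day 41 were each larger than the larger SD of the pair. The step from day 41 down to exposed mice of day 21, 0.13, was within the spread, as were all the following ones. The order of the 3 leading groups thus differed between the genes: day 41 lay above day 34 for Mmp12, within the spread, and below it for Timp1. Per exposed day, the largest difference of both genes was at day 32, where the groups were also the smallest.

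**Figure D3:**
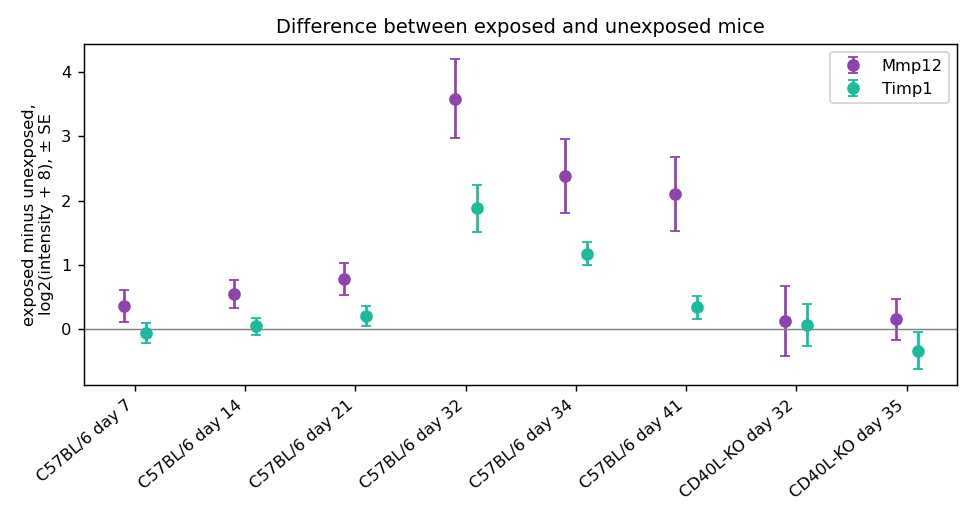
Difference between exposed and unexposed mice (vertical, log2(intensity + 8); bars are ± SE of the limma fit) for Mmp12 and Timp1 in 8 comparisons of strain and day. Mmp12 lies at 3.59, 2.38 and 2.10 in C57BL/6 mice of days 32, 34 and 41, where Timp1 lies at 1.88, 1.18 and 0.34, and both are within 0.34 of 0 in CD40L-KO mice.

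Exposed mice of the same day differed widely in Mmp12: the highest and lowest values were 31.7-fold apart at day 34 and 10.2-fold apart at day 41. At day 34 the mouse with the highest Mmp12 (2098 units) also had the highest Timp1 (844.4), but the mouse with the lowest Mmp12 (66.1) had a Timp1 level (470.8) above the group's median. At day 32 the mouse with the most Timp1 (1593) was not the one with the most Mmp12 (it had 880.4). At day 41 the mouse with the lowest Mmp12 (195.1) had the highest Timp1 of its group (370.2). The spread between mice of 1 group was not used to choose the genes, so its correlations were tested: 3 relations in the 6 groups with at least 6 mice, 18 in all, two-sided, adjusted by the Benjamini-Hochberg method.

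Over the 10 exposed mice of day 34, Mmp12 and Timp1 had Pearson's r 0.62 (permutation p = 0.0563, adjusted p = 0.253) and Spearman's rho 0.54 (permutation p = 0.112, adjusted p = 0.404). Without the 2 mice farthest from the median of Mmp12, r was 0.21, so its size depended on those mice, whose removal also narrows the range of Mmp12. Over the 7 mice without squamous transcripts r was 0.89 (exact permutation p = 0.00694, adjusted p = 0.125). Over the 10 exposed mice of day 41, r was 0.36 (permutation p = 0.299, adjusted p = 0.512) and rho 0.16 (permutation p = 0.655, adjusted p = 0.902), and r was -0.21 without 2 mice. In the exposed groups of days 7, 14 and 21 and the unexposed group of day 14, r between Mmp12 and Timp1 was -0.21, 0.51, -0.26 and 0.03, with exact permutation p-values from 0.193 to 0.964. A relation of protease and inhibitor between mice of 1 group was not shown at these group sizes.

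The mean level of the 19 macrophage genes had r 0.82 with Mmp12 at day 34 (permutation p = 0.00327, adjusted p = 0.0589) and rho 0.85 (permutation p = 0.00289, adjusted p = 0.0520). Neither passed 0.05 after adjustment over the 18 relations. The macrophage list was chosen with earlier results of these data known, so the p-values of its correlations are no independent support. Without the 2 mice farthest from the Mmp12 median r was 0.69, and over the 7 mice without squamous transcripts it was 0.91. At day 41 r was 0.56 (permutation p = 0.0904, adjusted p = 0.325) and rho 0.61 (permutation p = 0.0664, adjusted p = 0.305), and r was 0.23 without 2 mice. For Timp1 and the macrophage genes r was 0.63 at day 34 (permutation p = 0.0492, adjusted p = 0.253), with rho 0.61 (permutation p = 0.0677, adjusted p = 0.305) and r 0.56 without the 2 mice farthest from its median. In the 6 exposed mice of day 21 this r was 0.79 (exact permutation p = 0.0458, adjusted p = 0.253) and rho was 0.71 (exact permutation p = 0.136, adjusted p = 0.408).

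**Figure D4:**
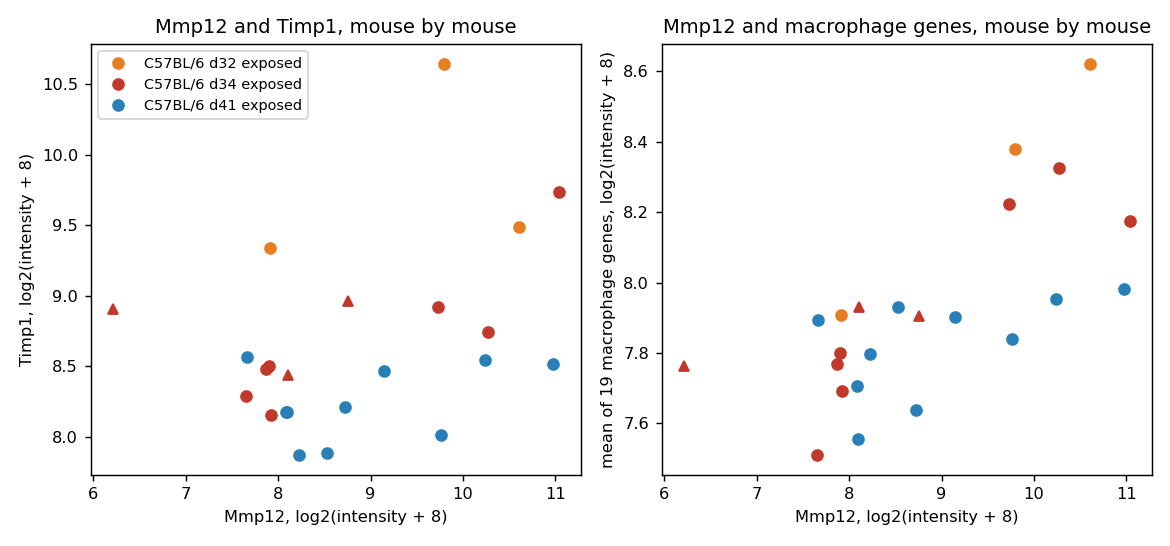
Timp1 (left) and the mean of 19 macrophage genes (right) against Mmp12, all in log2(intensity + 8), for each exposed C57BL/6 mouse of days 32, 34 and 41; triangles are arrays with squamous transcripts. In the right panel the 3 mice of day 34 with the highest Mmp12 (837.8, 1225 and 2098 units) have the highest macrophage means of their group (8.22, 8.33 and 8.17).

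Macrophage genes were higher in the same exposed groups. Their list was chosen with earlier results of these data known, so the counts below describe these data and are no independent support. At day 34, 12 of 19 measured macrophage genes rose in limma's test at an adjusted p under 0.05 and 0 fell, where 5.26% of all 8252 genes rose and 2.97% fell; the median difference of the list was 0.54, against -0.01 over all genes. Chil3, a chitinase-like protein of alveolar macrophages, rose by 1.46 ± 0.17 (SE, limma, adjusted p = 7.94e-07), and the complement genes C1qb, C1qa and C1qc rose by 1.48, 1.47 and 1.24. Cd68, a lysosomal glycoprotein, rose by 0.82 (its other probe set gave -0.30). Without the arrays with squamous transcripts, which left 1 unexposed mouse of day 34, 0 of the 19 passed on that day, and with the unexposed mice of both days pooled 10 passed. At day 32, 7 rose and 0 fell (1.28% and 0.303% of all genes), C1qb and C1qc by 1.83 and 1.80. At day 41, 2 rose and 0 fell (0.412% and 0% of all genes), namely Chil3 by 1.11 ± 0.17 (limma, adjusted p = 0.000547) and C1qc by 0.94 ± 0.21 (adjusted p = 0.0341). The count of day 32 was 14 without exposed replicate 2, 1 without exposed replicate 1, and 0 without exposed replicate 3 or either unexposed mouse; that of day 41 was 1 in 10 of the 15 refits that left out 1 mouse.

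The mean macrophage level ran from 7.91 to 8.62 in exposed and 7.23 to 7.36 in unexposed C57BL/6 mice of day 32, from 7.51 to 8.33 against 7.08 to 7.38 at day 34, and from 7.56 to 7.98 against 7.24 to 7.60 at day 41. The mean of 6 T cell genes moved with it, at 5.69 to 6.92 against 4.83 to 5.11 on day 32, 5.79 to 6.24 against 5.06 to 5.77 on day 34 and 5.51 to 6.04 against 5.13 to 5.87 on day 41, while the 8 neutrophil genes gave 5.95 to 6.26 against 5.96 to 6.35 on day 34. At day 32 the means of 3 lists of other lung cells were lower in all exposed mice, by narrow margins. The mean of 7 fibroblast genes was 8.35 to 8.77 against 8.82 to 9.17. That of 5 smooth muscle genes was 7.16 to 8.18 against 8.23 to 8.57, and that of 5 alveolar epithelium genes 10.00 to 10.47 against 10.50 to 10.58. With 3 mice against 2, 17% of all genes separated upward on that day, and the share that separated downward was not counted. At days 34 and 41 each of these 3 means overlapped between exposed and unexposed mice. In homogenate, more cells of a type and more RNA per cell cannot be told apart, and the part of these cells in the Mmp12 and Timp1 levels was not tested. In CD40L-KO mice 0 of 19 macrophage genes passed the test at day 32 or 35; at an unadjusted p under 0.05 there were 2 and 8, beside 13.9% and 9.37% of all genes. Their mean level at day 35 ran from 7.51 to 7.61, above the 6.97 to 7.36 of the controls, with Mmp12 overlapping between the same mice.

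Of 12 other metalloproteinase genes measured, 0 passed limma's test in any of the 8 comparisons, and from 0 to 3 of them had an unadjusted p under 0.05 in one. Of all genes, 0% to 5.26% rose and 0% to 2.97% fell per comparison, so 0 of 12 is near the share of all genes. From 6.6% to 24.4% of all genes had an unadjusted p under 0.05. At day 32 in C57BL/6 mice the differences of the 12 ran from -0.81 (Mmp17) to 0.78 (Mmp13, a collagenase). Of the 12, 3 had an unadjusted p under 0.05, beside 17.5% of all genes. At day 34 they ran from -0.30 (Mmp3, stromelysin 1) to 0.28 (Mmp2, gelatinase A), and at day 41 from -0.17 (Mmp17) to 0.20 (Mmp13). Mmp9, the gelatinase of neutrophils and macrophages, differed by -0.29 ± 0.22 at day 34 (SE, limma, adjusted p = 0.432), and Mmp14, which activates Mmp2 at the cell surface, by 0.04. Many of these are dim: Mmp2, Mmp7, Mmp8, Mmp10, Mmp13, Mmp16 and Mmp24 had medians under 9 units, near the offset of 8, where a change is understated.

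The matrix turnover list, also chosen with earlier results of these data known, held 52 genes besides Mmp12 and Timp1. Of these, 13, Timp4 included, were not analysed here. Of the 39 measured, 6 rose and 1 fell at day 34, against 5.26% and 2.97% of all genes; the list's median difference was -0.08, against -0.01 over all genes. Ctss, a lysosomal cysteine protease that cuts elastin, rose by 0.98 ± 0.15 (SE, limma, adjusted p = 4.56e-05, higher than the unexposed mean in 10 of 10 mice). Adam8, a membrane protease of leukocytes, rose by 1.60 ± 0.26 (adjusted p = 0.000137) and Ctsk, an elastin- and collagen-cutting cathepsin, by 0.92 ± 0.19 (adjusted p = 0.00181). Ctsb (0.52, with other probe sets at 0.38, -0.29 and -0.44), Adam19 (0.64) and Plat (0.66, named here outside the naming rule because it completes the 6) rose less. Timp3, the inhibitor that stays bound to the matrix, fell by 0.54 (SE 0.16, adjusted p = 0.0314), opposite to Timp1, and was below the unexposed mean in 10 of 10 mice. Timp2 differed by 0.00. Without the arrays with squamous transcripts 0 of the 39 passed, with 1 unexposed mouse left, and with unexposed mice of both days pooled 3 passed.

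At day 41 only Ctss passed among the 39, at 0.81 ± 0.15 (SE, limma, adjusted p = 0.00332, 10 of 10 mice), and at day 32 again only Ctss, at 1.38 ± 0.26 (adjusted p = 0.0323, 3 of 3 mice). The day 32 call was lost in 4 of the 5 refits that left out 1 C57BL/6 mouse of that day; without exposed replicate 2, 3 genes passed. In the C57BL/6 comparisons of days 7, 14 and 21 and in both CD40L-KO comparisons 0 of 39 passed in limma's test; at an unadjusted p under 0.05 there were 5, 3, 7, 6 and 5, beside 6.6%, 7.94%, 11.6%, 13.9% and 9.37% of all genes. Of all genes, 0% rose or fell at days 7 and 21 and in CD40L-KO mice of day 35, 0.218% rose and 0.0485% fell at day 14, and 0.0606% rose and 0.0121% fell in CD40L-KO mice of day 32. In CD40L-KO mice of day 35, Ctss differed by 0.35 ± 0.11 (adjusted p = 0.398) and Mmp3 by -0.71 ± 0.22 (adjusted p = 0.398).

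**Figure D5:**
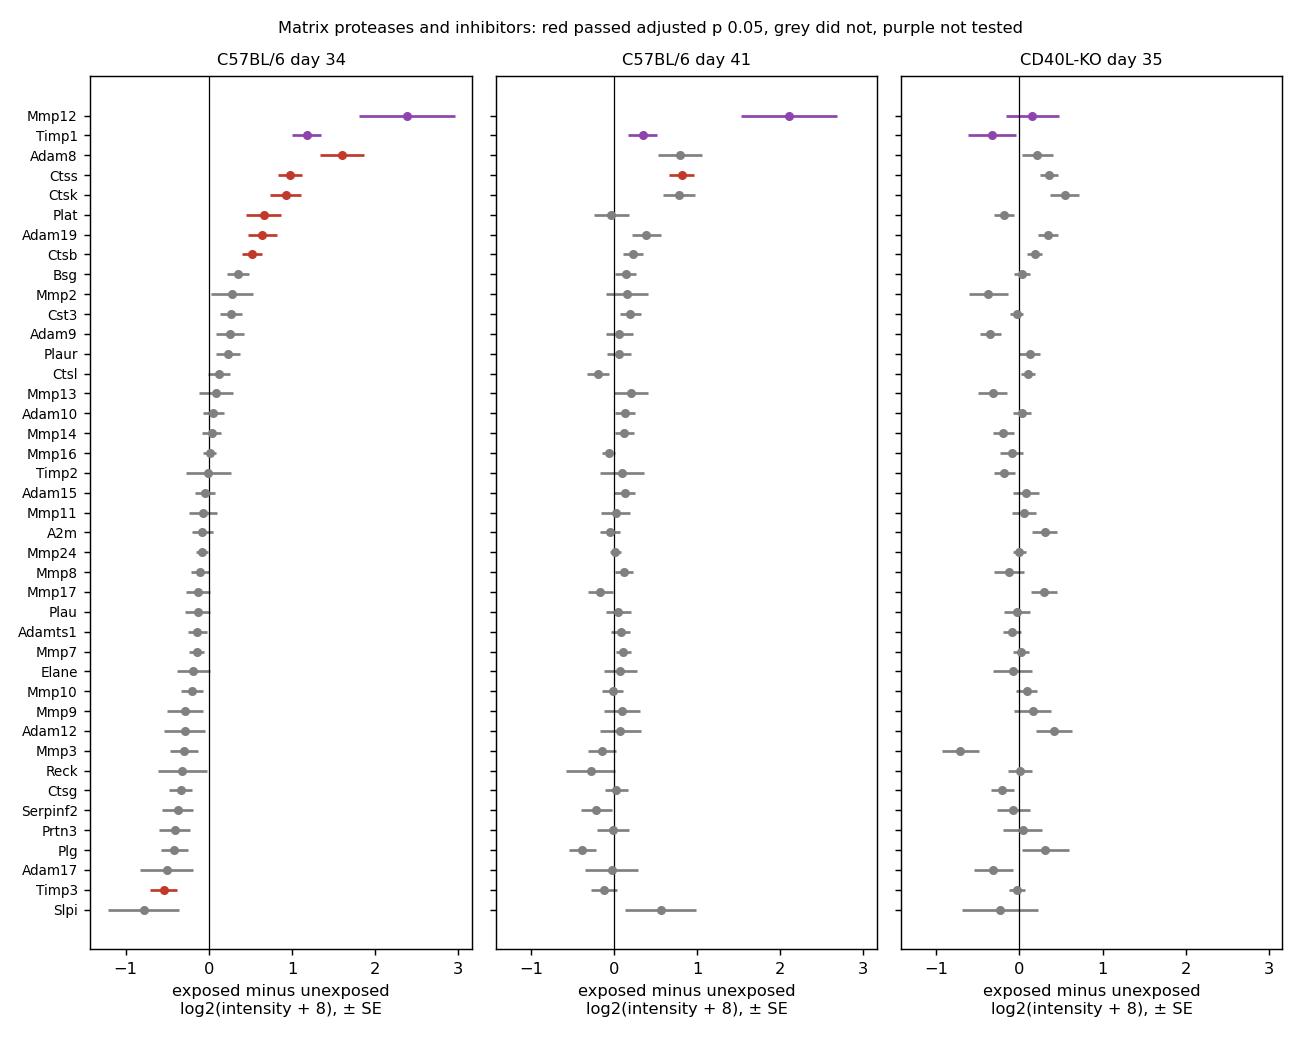
Difference between exposed and unexposed mice (horizontal, log2(intensity + 8); bars are ± SE) for 39 genes of matrix turnover and for Mmp12 and Timp1 in 3 comparisons, ordered by day 34 in C57BL/6 mice. Red genes passed limma's test at an adjusted p of 0.05, which 7 did at day 34, 1 at day 41 and 0 in CD40L-KO mice of day 35; Mmp12 and Timp1, in purple, were not tested.

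Genes of the cytokines, receptors and transcription factors that are known to switch on Mmp12 or Timp1 were counted in the same way. Counted with them was Socs3, a target of such cytokines and not one of these inducers. This list too was chosen with earlier results of these data known. Of 29 measured, 1 rose and 0 fell at day 32, where 1.28% of all genes rose and 0.303% fell, and 1 rose and 1 fell at day 34, where 5.26% rose and 2.97% fell. Socs3, a target of the IL-6 family of cytokines, rose by 0.83 ± 0.17 at day 32 (SE, limma, adjusted p = 0.0409, 3 of 3 mice; its other probe set gave 1.22). Csf2ra, a receptor chain for the macrophage growth factor GM-CSF, rose by 0.58 ± 0.15 at day 34 (adjusted p = 0.0179), and Ets2, an ETS-family factor, fell by 0.37 (adjusted p = 0.0407). These 3 calls were not stable: leaving out either unexposed mouse ended the call of day 32, and the count of day 34 ranged from 0 without unexposed replicate 4 to 4 without unexposed replicate 5.

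The cytokines measured did not pass the test on any day. Osm and Lif, cytokines of the same list, were not analysed here. At day 32 Il6 differed by 1.90 ± 0.47 (SE, limma, adjusted p = 0.0722), Il1b by 1.32 ± 0.43 (adjusted p = 0.158), Ifng by 1.14 ± 0.34 (adjusted p = 0.124) and Tnf by 0.70 ± 0.27 (adjusted p = 0.221). Il4 and Il13, which drive alternative macrophage activation, differed by 0.18 and 0.02 on that day. At day 34 Il1b differed by 0.57 (adjusted p = 0.0572) and Il6 by 0.56 (adjusted p = 0.127). In the comparisons of days 7, 14, 21 and 41 in C57BL/6 mice and of days 32 and 35 in CD40L-KO mice 0 of 29 passed; at an unadjusted p under 0.05 there were 2, 1, 7, 3, 6 and 9, beside 6.6%, 7.94%, 11.6%, 7.37%, 13.9% and 9.37% of all genes.

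The genes whose pattern was most like that of Mmp12 were found by Pearson's r over the 19 group means, among 4124 genes brighter than the median gene. They were Ctss (0.96 over the group means and 0.91 over the 95 arrays), Clca1, a secreted protein of mucous cells (0.94 and 0.79), Trafd1 (0.92 and 0.73), Tap1, a peptide transporter of antigen presentation (0.92 and 0.83), Dck, a kinase of nucleoside salvage (0.92 and 0.75), and Mthfd2, a mitochondrial folate enzyme (0.91 and 0.77). For Timp1 they were Uba7 (0.93 and 0.71), H2ax, a histone variant (0.93 and 0.76), Tap2, the partner of Tap1 (0.91 and 0.64), Hif1a, a factor of the response to low oxygen (0.90 and 0.68), Usp18 (0.89 and 0.66) and Tap1 (0.88 and 0.74). Uba7 and Usp18 are the activating and the removing enzyme of the interferon-induced modifier ISG15. Of the 20 genes most like each member, 10 were shared: Clca1, Tap1, Dck, S100a4, Pld4, C1qc, Tcirg1, Pigr, Mcm3 and C1qb. Mmp12 and Timp1 themselves had r 0.83 over the group means and 0.68 over the arrays. These correlations rest largely on the high exposed C57BL/6 groups, which all the genes share, and are a description.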

How the data were processed

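Total RNA of mouse lung homogenate was copied into biotin-labelled cRNA by in vitro transcription, per the labels' protocols. The authors deposited 1 linear intensity per probe set and array, with 1 missing value; for the way probes were summarised, the method is not given in the sources used. With 2% of values left out at each end, array means were 100.05 to 100.07, so the deposited intensities carry a common scaling, which can hide a shift of all genes. Intensities were used as log2(intensity + 8), and 8252 genes were read by their brightest probe set (10855 probe sets had 1 symbol, 396 several and 1236 none). The number of arrays limits the precision.

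Groups of 1 experiment were fitted together with lmFit and eBayes of limma 3.58.1 (R 4.3.3), with Benjamini-Hochberg adjustment over all genes and a threshold of 0.05; Python 3.11.15 and pandas 2.3.3 made the tables. The fit was tested on simulated data: for C57BL/6 day 34, with 8252 genes, 44, 49, 50 and 50 of 50 genes changed by 1, 2, 3 and 4 (log2) were found, with 16 false calls of 8052. Fewer were found at day 32, namely 31 of 50 changed by 1 in each strain. Of 50 changed by 2 it was 48 in C57BL/6 and 45 in CD40L-KO mice. The simulated spread was normal and equal in all groups of an experiment, which the real spread need not be. The members and lists were chosen with earlier results of these data known. Named list genes were up to 6 that passed per comparison by smallest p, otherwise the 2 with the smallest p, and a fixed set of metalloproteinases, inhibitors and cytokines. Alternatives were offsets of 2 and 32, a filter on dim genes, quantile normalization, the mean of all probe sets, 1 fit of all arrays, the replicate number as a block, the squamous arrays left out or as a covariate, and leaving out each mouse; the Gapdh ratio and pooled controls were chosen after seeing the data. Replicate numbers were checked as pairs: at most 3 of 6 same-numbered pairs of a comparison deviated together (r over 0.1). This was at day 14, where 3 of 6 exposed mice also matched the control of their own number best. The highest r of a pair was 0.51, at day 7. So few pairs cannot settle whether the numbers pair the mice, and the main fits did not use them as pairs. No 2 arrays were identical (0 pairs).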

Additional observations from a re-analysis of the deposited data

Results flagged for a closer look

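Timp1 of exposed C57BL/6 replicate 4 of day 34 (844.4 units, 9.74 on the log2 scale) stood apart from the next of its 10 mice (8.97), with a gap of 0.488 of the group's range; it also had the highest Mmp12, and its array carried no squamous transcripts. Timp1 of exposed CD40L-KO replicate 3 of day 35 (147.0 units, 7.28) stood apart from the next of its 4 mice (6.78), with a gap of 0.853 of the range. With 36 tests of a group for such a gap, chance gives about 1 in 20.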

How the results depend on the processing

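The Mmp12 and Timp1 differences of C57BL/6 days 32, 34 and 41 kept their sign under all alternatives run. Leaving out 1 mouse gave 3.00 to 4.35, 2.08 to 2.72 and 1.88 to 2.24 for Mmp12 and 1.47 to 2.12, 1.06 to 1.24 and 0.29 to 0.41 for Timp1. With the mean of all probe sets, which mixes in the dim one, Timp1 was 1.12 at day 32 and 0.53 at day 34; the CD40L-KO day 32 difference of Mmp12 was -0.30 without squamous arrays. The cause of the following moves was not tested, other than fewer arrays in a fit. Matrix turnover genes called at day 32 were 5 with 1 fit of all arrays and 0 with the replicate block, without squamous arrays (here only CD40L-KO mice that share the spread left the fit) or with the Gapdh ratio; at day 34 they were 0 without squamous arrays, 4 with the squamous covariate, 3 with the Gapdh ratio and 3 with pooled controls; at day 41 they were 2 without dim genes, 2 with 1 fit, 2 with the Gapdh ratio and 3 with pooled controls; in CD40L-KO day 32, 1 with 1 fit. Inducers at day 32 were 7 with 1 fit and 0 with offset 2, the mean of probe sets, the replicate block, without squamous arrays or with the squamous covariate; at day 34 they were 6 with 1 fit, 1 with the squamous covariate and 0 without squamous arrays or with the Gapdh ratio. Macrophage genes at day 32 were 3 with offset 2, 11 without dim genes, 14 with 1 fit, 1 with the replicate block and 0 without squamous arrays; at day 34, 0 without squamous arrays; at day 41, 4 with quantile normalization, 6 with 1 fit, 4 with the Gapdh ratio and 6 with pooled controls; in CD40L-KO day 35, 1 with 1 fit. The replicate block moved no other count by over 1.5 times. Leaving out 1 mouse gave 0 to 1 (day 14), 0 to 3 (day 32), 5 to 10 (day 34), 1 to 2 (day 41) and 0 to 1 (CD40L-KO day 32) matrix turnover genes, 0 to 3 and 0 to 4 inducers at days 32 and 34, and 0 to 1, 0 to 14 and 1 to 3 macrophage genes at days 14, 32 and 41. Correlations of Mmp12 and Timp1 turned sign to 0.0892 at day 7 with the mean of probe sets, to -0.17 in exposed mice of day 14 without 2 mice, to -0.27, -0.56 and -0.57 in unexposed mice of day 14 with the mean of probe sets, without squamous arrays and without 2 mice, to 0.12 and 0.27 at day 21 without squamous arrays and without 2 mice, and to -0.21 at day 41 without 2 mice. Mmp12 with macrophage genes turned to 0.0059 at day 7 with the mean of probe sets and to 0.69 in unexposed mice of day 14 without 2 mice, and at day 34 passed the threshold with offset 32 (0.86) and the mean of probe sets (0.85). Timp1 with macrophage genes turned to -0.14 in exposed mice of day 14 without 2 mice, and in unexposed mice of day 14 to 0.0017 with quantile normalization, 0.17 with the mean of probe sets and 0.25 without squamous arrays. Signal near the floor limits the dim probe sets of both genes.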
